A study of Mus musculus with 6 samples.

Results

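Glutathione synthesis and use was followed through 9 genes, Gclc, Gclm, Gss, Gsr, Gpx1, Gpx4, Glrx, Gstm1 and Mgst1, in erythroblasts with and without the miR-144/miR-451 locus. Every probe set that the platform annotation assigns to 1 of these symbols alone was taken, which gave 19 probe sets of 45037 tested, and 9 genes of 18193. Gpx1 had 1 probe set, Gstm1 had 4 and the other 7 genes had 2 each. There were 6 arrays of mouse bone marrow: 3 wild type (WT), numbered 497, 504 and 550, and 3 miR-144/miR-451 knockout (KO), numbered 493, 548 and 551, as in the sample titles. In both groups, freshly taken bone marrow was stained for Ter119, a marker of the erythroid lineage, and CD71, the transferrin receptor, and large double-positive cells were collected into Trizol LS for total RNA. Each sample was read on 1 Affymetrix Mouse Genome expression array. The labels do not say what the numbers stand for (they also appear in a field for a microRNA construct), nor that each sample came from a separate mouse. Strain, age, sex, and how the null allele was made were not given in the sources used here. Replicates are therefore samples, and the p-values below measure the spread between these 6 samples only.

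Glutathione is a tripeptide whose cysteine thiol can be oxidised and reduced again, and it is the main small thiol of red cells. It is built by glutamate-cysteine ligase (the catalytic subunit GCLC with its modifier GCLM) and glutathione synthetase (GSS), and its oxidised form is returned to the reduced state by glutathione reductase (GSR) at the cost of NADPH. Glutathione peroxidases spend it on hydrogen peroxide and lipid hydroperoxides, glutaredoxin frees protein thiols that carry it, and glutathione transferases couple it to reactive compounds. In red cells, where haem iron and oxygen meet, this cycle is known to guard haemoglobin and the membrane against oxidation.

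The deleted locus encodes miR-144 and miR-451. Of their mature sequences (RefSeq, GRCm38.p6, 5′ to 3′), all lacking in the KO cells, miR-144-3p and miR-451a are shown, and miR-144-5p is not. Capitals mark the seed, bases 2 to 8, which pairs with target transcripts.
mmu-miR-144-3p (chr11:78073047-78073066, + strand): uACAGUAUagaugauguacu
mmu-miR-451a (chr11:78073186-78073207, + strand): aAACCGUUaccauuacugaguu
The pair do not share a seed. NRF2, the transcription factor that drives many glutathione genes through the antioxidant response element, has been described as a target of miR-144. None of the 9 genes lies on chromosome 11, which carries the locus.

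The promoters of 4 members follow because the genotypes stood farthest apart in Gss, Gstm1 and Mgst1, while Gclm is a standard target of NRF2. Each window runs from 250 bases before to 50 after the most upstream start in RefSeq (GRCm38.p6). Capitals mark the core of the antioxidant response element, TGACNNNGC, searched on both strands.
Gclm (chr3:122245307-122245606, + strand): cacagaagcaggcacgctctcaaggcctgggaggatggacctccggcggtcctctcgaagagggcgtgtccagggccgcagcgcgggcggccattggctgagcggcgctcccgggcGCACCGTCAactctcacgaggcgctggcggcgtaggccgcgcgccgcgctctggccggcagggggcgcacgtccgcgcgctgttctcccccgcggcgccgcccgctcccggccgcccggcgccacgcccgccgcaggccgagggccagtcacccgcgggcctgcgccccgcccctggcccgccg
Mgst1 (chr6:138140277-138140576, + strand): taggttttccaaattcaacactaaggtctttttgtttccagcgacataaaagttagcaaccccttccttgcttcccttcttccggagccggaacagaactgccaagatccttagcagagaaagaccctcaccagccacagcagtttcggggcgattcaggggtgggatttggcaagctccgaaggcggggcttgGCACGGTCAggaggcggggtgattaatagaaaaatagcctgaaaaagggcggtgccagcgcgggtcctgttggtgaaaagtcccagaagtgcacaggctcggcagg
Gstm1 (chr3:108017924-108018223, - strand): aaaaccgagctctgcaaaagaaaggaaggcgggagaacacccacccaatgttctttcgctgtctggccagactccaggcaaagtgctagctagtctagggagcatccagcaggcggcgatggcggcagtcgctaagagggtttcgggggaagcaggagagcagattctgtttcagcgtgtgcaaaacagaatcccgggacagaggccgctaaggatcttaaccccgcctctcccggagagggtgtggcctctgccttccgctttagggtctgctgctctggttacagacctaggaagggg
Gss (chr2:155592761-155593060, - strand): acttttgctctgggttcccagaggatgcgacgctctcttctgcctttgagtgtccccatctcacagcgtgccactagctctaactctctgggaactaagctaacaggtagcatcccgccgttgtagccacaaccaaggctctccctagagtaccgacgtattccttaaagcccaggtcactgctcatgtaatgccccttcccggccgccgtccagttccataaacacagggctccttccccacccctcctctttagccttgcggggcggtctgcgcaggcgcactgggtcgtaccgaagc
The table held 13 promoter windows for 7 of the 9 genes. The core was found in 2 of these genes, Gclm and Mgst1, in each case on the opposite strand: GCACCGTCA began 134 bases before the Gclm start and GCACGGTCA began 56 bases before the Mgst1 start. The core was thus in 2 of the 13 member windows, while 12.4% of all 32851 windows of this length held it. A GATA site (AGATAA or TGATAA, both strands), the motif of the master erythroid regulator GATA1, was found in 1 member, Gpx4. It was TGATAA in 2 overlapping windows of the 13, against 18.6% of all windows. A match is a run of letters, not evidence of binding.

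Values are log2 of the deposited probe-set intensities, and every difference is log2 KO minus WT with the standard error (SE) of limma's moderated fit; SDs are over 3 arrays. A call required a Benjamini-Hochberg adjusted p under 0.05 over all 45037 probe sets. Array medians were 5.73 to 5.78 in WT, against 5.62 to 5.68 in KO, and the median difference of all probe sets was -0.04.

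No member passed the test in erythroblasts lacking miR-144/miR-451: limma called 0 of 19 member probe sets, against 0.355% of all probe sets, and the smallest adjusted p among members was 0.0685, on a dim Mgst1 probe set near the floor of the arrays. Gstm1 and Mgst1, which detoxify electrophiles, were at lower values in KO, by 0.58 to 0.79 in 3 of the 4 Gstm1 probe sets, and by 0.53 on the Mgst1 probe set that was well above the floor. Gss, the second enzyme of synthesis, was at higher values, by 0.54 and 0.60. The remaining 6 genes differed by 0.28 or less in every probe set. Unadjusted p lay under 0.05 for 9 member probe sets, 2 higher and 7 lower, where 19.8% of all probe sets did so, 7.61% higher and 12.2% lower. KO and WT values did not overlap in 10 of the 19, 2 higher and 8 lower, against 26% of all probe sets, 10.7% higher and 15.3% lower. Both counts are over probe sets of 9 genes, and probe sets of a gene are not independent. With each of the 9 genes read on its probe set with the highest mean, 1 higher and 2 lower had an unadjusted limma p under 0.05. Over all genes, 21% did so in either direction. Groups did not overlap for 1 higher and 3 lower of the 9, against 28.8% of all genes in either direction. A second fit, with a prior variance that follows intensity and resists outliers (the trend fit), called 3.53% of all probe sets and 4 member probe sets, all lower: both brighter Gstm1 probe sets, the dim Mgst1 probe set and 1 of Gclm. Without any 1 array, limma called 0 members, where it called 0.0178% of all probe sets without KO 548, 0.0488% without WT 497 or WT 504, and 0.0511% without any of the others. Without both WT 497 and KO 493 it again called 0 members, against 0.0244% of all.

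**Figure D1:**
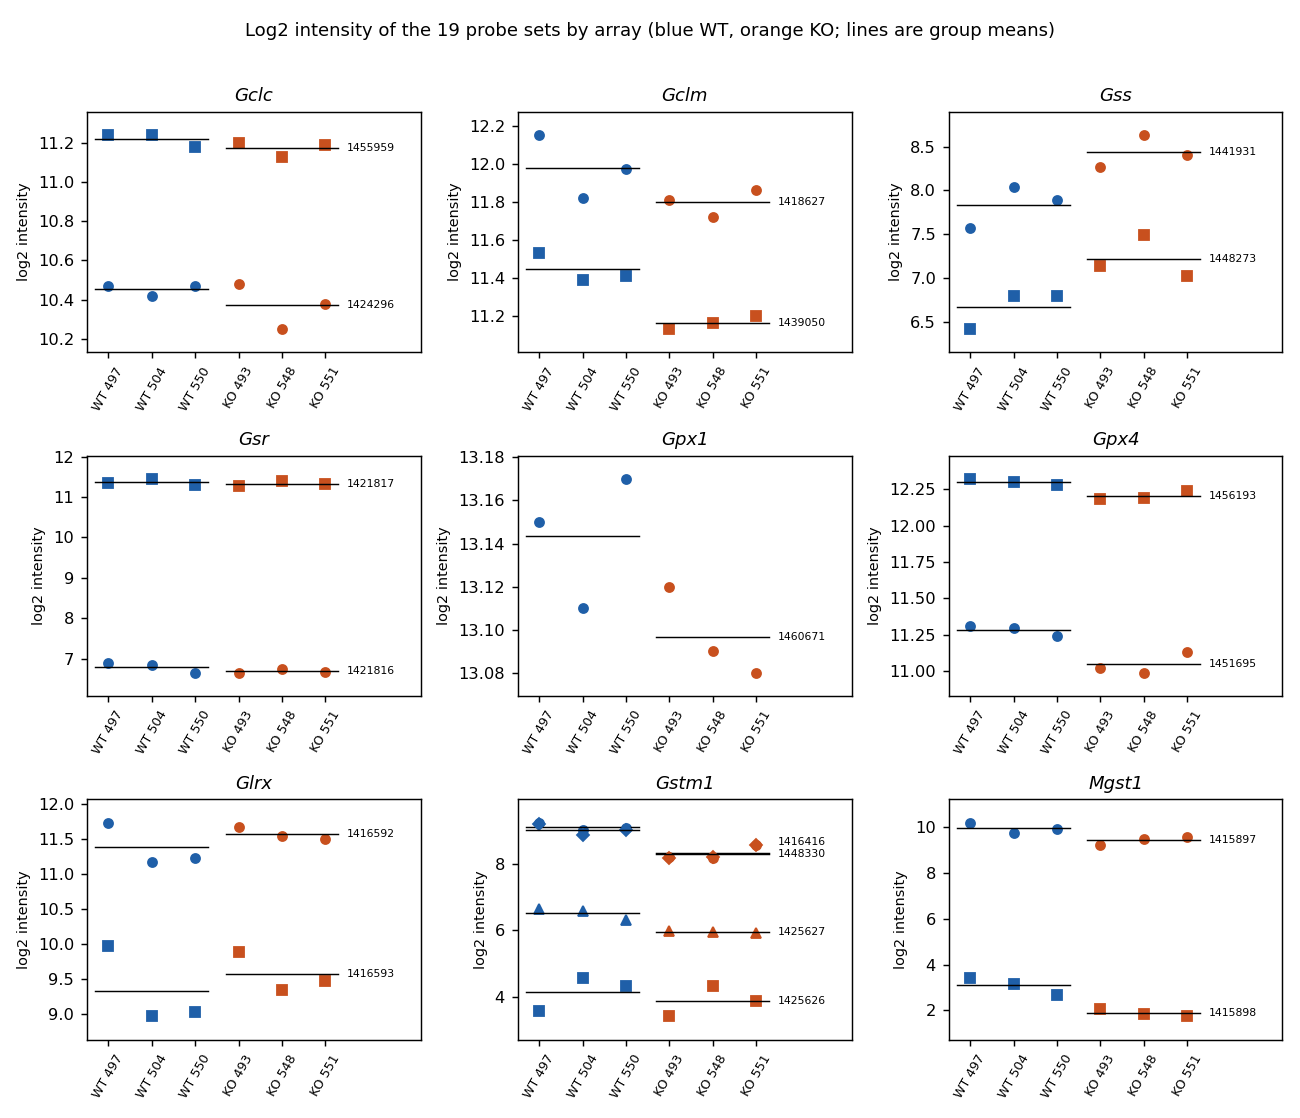
Log2 intensity (vertical axis, a separate scale in each panel) of each member probe set on the 6 arrays (horizontal axis), with WT in blue, KO in orange and a line at each group's mean; marker shapes tell probe sets of a gene apart, and the number at the right is the start of the probe-set name. Gss lies higher in all 3 KO arrays, both Mgst1 probe sets and 3 of 4 Gstm1 probe sets lie lower, and Gpx1 spans 13.08 to 13.17 over all arrays.

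Of the enzymes that make glutathione, Gclc, the catalytic subunit of the rate-limiting ligase, was almost level. Its probe set 1455959_s_at read 11.24, 11.24 and 11.18 in WT 497, 504 and 550, against 11.20, 11.13 and 11.19 in KO 493, 548 and 551. The groups overlapped, and the difference was -0.05 ± 0.09 (95% interval -0.27 to 0.18, adjusted p = 0.821 by limma). The other probe set, 1424296_at, was at -0.08 ± 0.11 (adjusted p = 0.702), with KO 548 the lowest array at 10.25 and the rest at 10.38 to 10.48. Both differences changed sign when each array was centred on its own median, to 0.063 and 0.027.

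Gclm, the modifier subunit that raises the ligase's affinity for glutamate, was slightly lower in KO by both of its probe sets. On 1439050_at WT arrays read 11.53, 11.39 and 11.41 and KO arrays 11.13, 11.16 and 11.20. All 3 KO values lay under all WT values, and the difference was -0.28 ± 0.10 (interval -0.51 to -0.05, adjusted p = 0.196 by limma, 0.0415 with the intensity trend). On 1418627_at, WT arrays read 12.15, 11.82 and 11.97 and KO arrays 11.81, 11.72 and 11.86. Here WT 504 lay inside the KO range, and the difference was -0.18 ± 0.12 (interval -0.47 to 0.10, adjusted p = 0.442). Without WT 497 it was -0.098 (adjusted p = 0.746).

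Gss, which adds glycine to complete the tripeptide, was the member with the highest KO values relative to WT. Its probe set 1441931_x_at read 7.57, 8.04 and 7.89 in WT 497, 504 and 550, against 8.27, 8.63 and 8.41 in KO 493, 548 and 551. Every KO array stood above every WT array. The difference was 0.60 ± 0.16 (interval 0.22 to 0.99), a 1.52-fold higher level, with an adjusted p of 0.135 by limma. On the other probe set, 1448273_at, WT arrays read 6.42, 6.80 and 6.80 and KO arrays 7.14, 7.49 and 7.02. The groups were again apart, by 0.54 ± 0.17 (interval 0.14 to 0.95, adjusted p = 0.168), with WT 497 lowest and KO 548 highest on both. Leaving out each array in turn moved the Gss difference between 0.47 and 0.71 on the first probe set and between 0.41 and 0.64 on the second. Gss was the only 1 of the 3 synthesis genes measured higher in KO, and no fit called it; the trend fit gave adjusted p = 0.0758 and 0.122.

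Gsr, which regenerates reduced glutathione, differed little. On 1421817_at WT arrays read 11.36, 11.45 and 11.29 and KO arrays 11.27, 11.40 and 11.33. The ranges overlapped almost wholly, and the difference was -0.03 ± 0.10 (interval -0.28 to 0.21, adjusted p = 0.887 by limma). The second probe set, 1421816_at, was at -0.11 ± 0.11 (interval -0.36 to 0.15, adjusted p = 0.627). Neither direction is settled, since centring each array on its median gave 0.077 and 0.00333, and leaving out WT 504 gave 0.00833 on 1421817_at.

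The member peroxidases, Gpx1 and Gpx4, were lower in KO by 0.24 or less in every probe set. Gpx1, the abundant cytosolic selenoenzyme that removes hydrogen peroxide in red cells, read 13.15, 13.11 and 13.17 in WT, against 13.12, 13.09 and 13.08 in KO. KO 493 lay inside the WT range. The difference was -0.05 ± 0.09 (interval -0.27 to 0.17, adjusted p = 0.819 by limma), and it was 0.063 with arrays centred on their medians. The group SDs were 0.03 in WT, against 0.02 in KO, and the interval uses the variance that limma shares over all probe sets.

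Gpx4, the selenoenzyme that reduces lipid hydroperoxides in membranes, was lower in KO on 1 probe set by a small margin. On 1451695_a_at WT arrays read 11.31, 11.30 and 11.24 and KO arrays 11.02, 10.99 and 11.13. The groups did not overlap, and the difference was -0.24 ± 0.10 (interval -0.47 to -0.00369, adjusted p = 0.246 by limma). On 1456193_x_at WT arrays read 12.32, 12.30 and 12.28 and KO arrays 12.18, 12.19 and 12.24. Again no KO array reached a WT array, but the gap was smaller, at -0.10 ± 0.09 (adjusted p = 0.603), and it turned to 0.013 with arrays centred on their medians. Probe sets with names ending in _x_at hold probes that can match other transcripts, and Gpx4 has pseudogene copies, so its level on 1456193_x_at is uncertain.

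Glrx, glutaredoxin 1, uses glutathione to reduce mixed disulfides on proteins, and it varied more between arrays than between genotypes. On 1416592_at WT arrays read 11.73, 11.17 and 11.23 and KO arrays 11.67, 11.54 and 11.50. WT 497 was the highest of the 6 arrays, while WT 504 and WT 550 were the lowest. The difference was 0.19 ± 0.17 (interval -0.21 to 0.59, adjusted p = 0.563 by limma). The second probe set, 1416593_at, kept this order at the top and bottom, with WT 497 at 9.98 and WT 504 at 8.97, and gave 0.25 ± 0.29 (adjusted p = 0.684). Without WT 497 the Glrx differences were larger, at 0.37 and 0.57, with adjusted p = 0.259 and 0.255 by limma. Over the fits without 1 array they ranged from 0.09 to 0.37 on the first probe set and from 0.068 to 0.57 on the second.

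Gstm1, a cytosolic mu-class transferase, held the lowest KO values relative to WT among the members read well above the bottom of the scale. Its brightest probe set, 1416416_x_at, read 9.25, 9.02 and 9.08 in WT 497, 504 and 550, against 8.22, 8.19 and 8.57 in KO 493, 548 and 551. KO 551 was the highest KO array and still lay under every WT array. The difference was -0.79 ± 0.14 (interval -1.12 to -0.46), a level 1.73-fold higher in WT, with an adjusted p of 0.0744 by limma. On 1448330_at WT arrays read 9.20, 8.87 and 9.04 and KO arrays 8.17, 8.21 and 8.58, a difference of -0.72 ± 0.15 (adjusted p = 0.0978). On 1425627_x_at WT arrays read 6.64, 6.59 and 6.33 and KO arrays 5.97, 5.94 and 5.91, a difference of -0.58 ± 0.12 (adjusted p = 0.0901). Groups were apart on all 3 of these. The fourth, 1425626_at, was dim (3.41 to 4.56), overlapped and gave -0.28 ± 0.32 (adjusted p = 0.675).

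Gstm1 was called under 3 alternatives. With the intensity trend 1416416_x_at and 1448330_at were called (adjusted p = 0.0207 and 0.0361), and with the dimmer 50% of probe sets left out 3 were called (adjusted p = 0.0344, 0.0494 and 0.0396 for 1416416_x_at, 1448330_at and 1425627_x_at). That filter called 4.51% of the probe sets it kept, and the trend fit called 3.53% of all probe sets. With 16 added to each value before the log, 1416416_x_at and 1425627_x_at were called (adjusted p = 0.0313 and 0.0484). This setting called 1016 of all 45037 probe sets, against 160 in the main fit. Without any 1 array the difference on 1416416_x_at stayed between -0.91 and -0.72, and its adjusted p between 0.122 and 0.202. Mu-class genes are near-identical in parts, and 2 of the 4 probe sets end in _x_at, so which member of the family they read is uncertain.

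Mgst1, a membrane-bound transferase and peroxidase of the endoplasmic reticulum and mitochondria, was also lower in KO on both probe sets. On 1415897_a_at WT arrays read 10.19, 9.73 and 9.93 and KO arrays 9.23, 9.47 and 9.57. The groups did not overlap, KO 551 coming nearest to WT 504, and the difference was -0.53 ± 0.16 (interval -0.90 to -0.15, adjusted p = 0.157 by limma). The other probe set, 1415898_at, read 3.43, 3.16 and 2.69 in WT, against 2.07, 1.83 and 1.74 in KO, a difference of -1.21 ± 0.20 (adjusted p = 0.0685). All of these lie under the 25th percentile of their arrays (4.30 to 4.40), so both groups lay close to the floor of the arrays. As the mean of its probe sets Mgst1 was at -0.87 (adjusted p = 0.0525 by limma), a value that includes the dim one, and Gstm1, averaged likewise, at -0.59 (adjusted p = 0.0657), so that 0 members were called where 0.704% of all genes were.

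**Figure D2:**
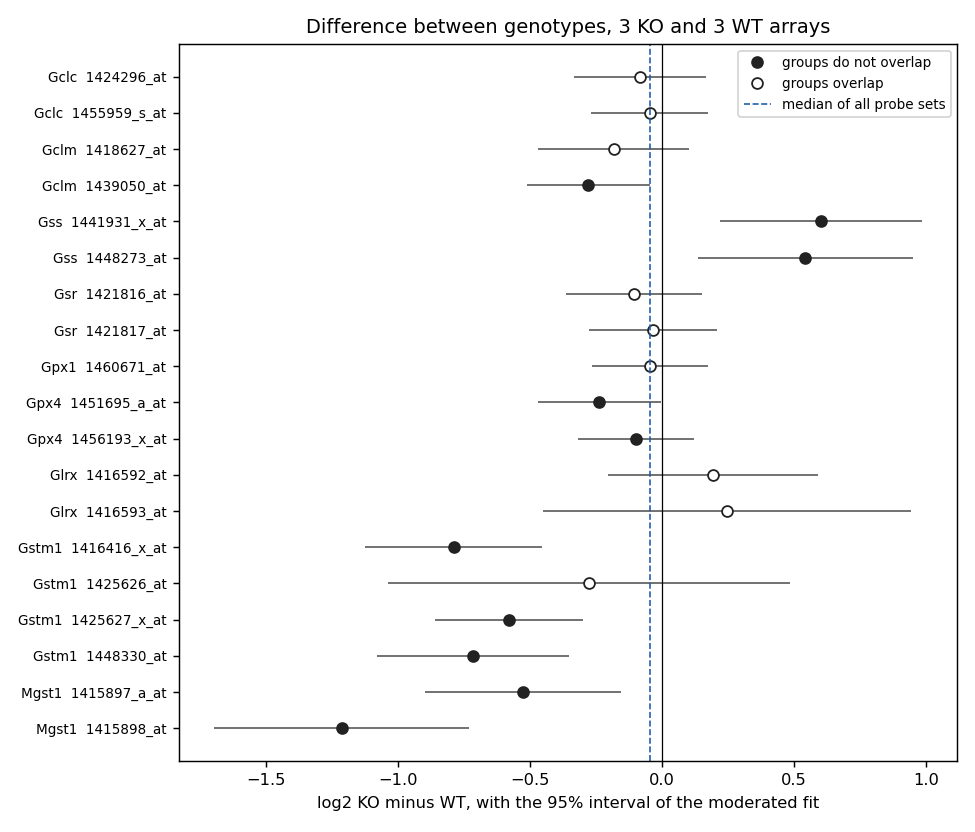
Difference between genotypes (horizontal axis, log2 KO minus WT) for each of the 19 member probe sets (rows), with the 95% interval of limma's moderated fit over 3 KO and 3 WT arrays; filled points mark groups that do not overlap, and the dashed line is the median of all probe sets, -0.04. Intervals of both Gss probe sets lie above 0 and those of 3 Gstm1 and both Mgst1 probe sets below 0, while Gclc, Gsr, Gpx1 and Glrx span 0; centring arrays on their medians turned the sign of Gclc, Gsr, Gpx1 and 1 Gpx4 probe set.

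Markers of other bone marrow cells were measured on the same arrays: of 72 genes in 8 lists, erythroid ones included, 64 differences lay below 0. In WT and KO, the 12 measured erythroid markers averaged 12.15 to 12.24 and 12.001 to 12.09, with 11 of 12 differences below 0 and a median of -0.12. The 13 neutrophil markers averaged 11.41 to 11.65 in WT, against 10.95 to 11.27 in KO, with 13 of 13 below 0 and a median of -0.36. Eosinophil, basophil and mast cell markers (7 measured) averaged 8.42 to 9.29 and 7.95 to 8.15, with 7 of 7 below 0 and a median of -0.74. Monocyte and macrophage markers (12) averaged 9.24 to 9.60 and 8.97 to 9.11 with a median of -0.31, and early progenitor markers (8) 6.90 to 7.25 and 6.55 to 6.67 with a median of -0.61. B lineage markers (7) had a median of -0.61 and T and NK markers (6) of -0.62, with WT 497 highest on both, at 9.18 and 7.26, while the 7 megakaryocyte and platelet markers stood at 0.04. Of the 72, 1 lay below the 25th percentile of an array, on 1 or more arrays, which is no detection call. Over all 18193 genes the median was -0.04, with 10231 differences below 0. Limma called 0 of the 72 markers, against 0.385% of all genes. The unadjusted p was under 0.05 for 29 of them, all lower, where 12.7% of all genes did so in that direction. The trend fit called 3, all lower, where it called 4.42% of all genes in either direction.

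Granulocytes and monocytes are known to express Mgst1 and Glrx as well, and bulk RNA cannot tell fewer cells of a type from less RNA per cell. The part of these cells in the Gstm1 and Mgst1 differences was not tested. Of 2 readings of RNA quality, 1 stood apart by genotype. The 3′ minus 5′ signal of the actin control probe sets was 1.65 to 1.67 in WT, against 1.82 to 1.86 in KO. That of the Gapdh controls overlapped, at 1.03 to 1.09 in WT, against 1 to 1.05 in KO. The part of RNA quality was not tested either.

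**Figure D3:**
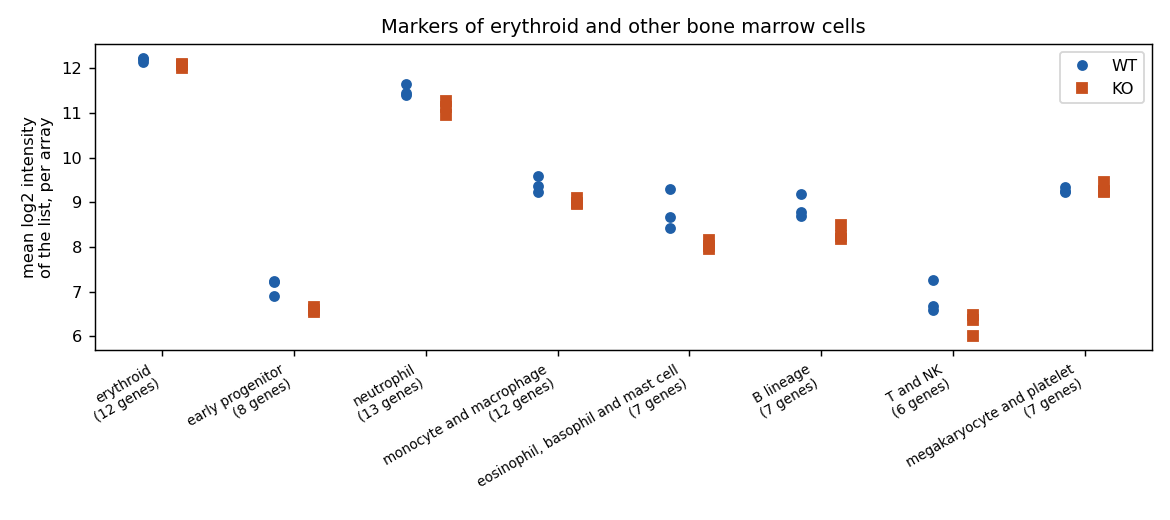
Mean log2 intensity (vertical axis) of the measured genes of each marker list (horizontal axis) on each WT (blue circles) and KO (orange squares) array. WT arrays lie above KO arrays for every list except megakaryocyte and platelet markers, and neutrophil markers average 11.41 to 11.65 in WT, against 10.95 to 11.27 in KO. The array medians are also apart, at 5.73 to 5.78 in WT, against 5.62 to 5.68 in KO. Centring arrays on their medians moved the median difference of the erythroid markers from -0.12 to -0.012. Taken singly, 28.8% of all genes have groups that do not overlap, in either direction.

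Around the 9 members, 12 lists covered the wider glutathione system, and 99 of their 105 genes were measured, each read on its probe set with the highest mean. Of the 90 measured genes that are not members, limma called 1, higher, where 0.385% of all genes were called; 9 higher and 14 lower had an unadjusted p under 0.05, where 21% of all genes did. The trend fit called 5 higher and 3 lower, against 4.42% of all genes. The median of these 90 differences was -0.08, with 58 below 0. That of all 18193 genes was -0.04, with 10231 below 0, which is the background for the sign counts of the lists below.

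The called gene was Abcc3, an export pump of the ABC family for glutathione and glucuronide conjugates. It read 10.06, 9.90 and 10.05 in WT, against 10.88, 10.81 and 10.91 in KO, with a wide gap between the groups. It rose by 0.86 ± 0.10 (interval 0.62 to 1.11, 1.82-fold, adjusted p = 0.0342 by limma). Abcc3 lies on chromosome 11 with the deleted locus, as do Gpx3, Chac2, Slc25a10 and Nfe2l1 below. Its call ended without any 1 of the 6 arrays, at differences of 0.81 to 0.89 and adjusted p = 0.0911 to 0.13, in fits that held fewer arrays. In the transport list, 4 of 9 genes were above 0, with a median of -0.01, and the mitochondrial dicarboxylate carrier Slc25a10 stood at -0.53 ± 0.10 (adjusted p = 0.0821).

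**Figure D4:**
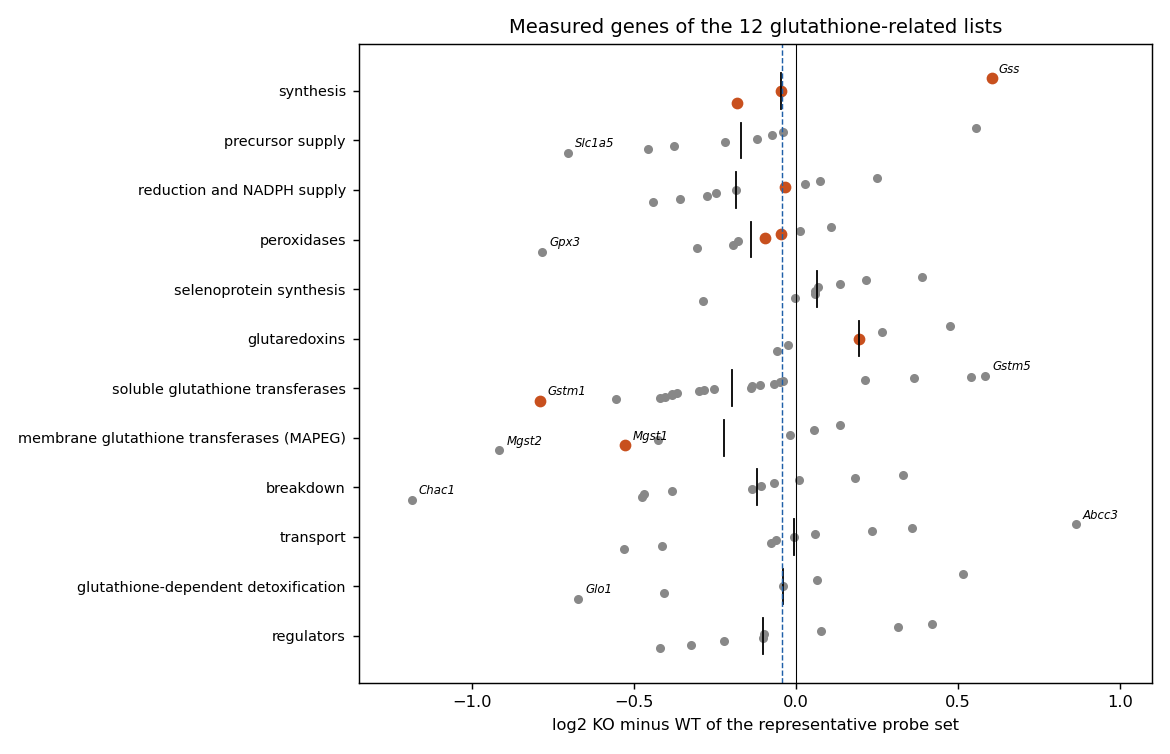
Difference between genotypes (horizontal axis, log2 KO minus WT of the representative probe set) of each measured gene in the 12 lists (rows), with the members in orange, other genes in grey, a black bar at each list's median and a dashed line at the median of all probe sets, -0.04. Abcc3, at 0.86, is the 1 gene called by limma, and Gstm1 and Gss lie at the outer ends of their lists at -0.79 and 0.60.

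Soluble glutathione transferases were spread widely around Gstm1: 20 were measured, 0 were called by limma, 4 differences lay above 0 and 16 below, and the median was -0.20. Gstm5, a mu-class relative, went the other way from Gstm1. It read 11.59, 11.90 and 11.52 in WT, against 12.18, 12.27 and 12.31 in KO, and all KO arrays stood above all WT arrays. The difference was 0.58 ± 0.13 (interval 0.27 to 0.89, adjusted p = 0.106 by limma, 0.017 with the trend). Gstm4, another mu-class gene, stood at -0.56 ± 0.17 (adjusted p = 0.163). Among the 6 listed genes of the MAPEG family of membrane proteins, which includes Mgst1 but not only transferases, the median was -0.22 and limma called 0. Mgst2, which can also make leukotriene C4, read 9.97, 9.57 and 9.69 in WT, against 8.21, 8.93 and 9.34 in KO, at -0.92 ± 0.28 (adjusted p = 0.165). Alox5ap, the 5-lipoxygenase activating protein, stood at -0.43 ± 0.19 (adjusted p = 0.28).

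Among 8 peroxidases, limma called 0, 6 differences lay below 0 and the median was -0.14. Gpx3, the secreted plasma enzyme, read 7.67, 7.68 and 7.81 in WT, against 6.20, 7.33 and 7.28 in KO, with KO 493 far under the other KO arrays, at -0.78 ± 0.30 (adjusted p = 0.22). Without KO 493 the Gpx3 difference was -0.415 (adjusted p = 0.224). Gpx6 stood at -0.31 ± 0.18 (adjusted p = 0.393) on a dim probe set (3.99 to 4.87). Gpx2, Gpx5, Gpx7 and Gpx8, named here for their low levels, were dim as well, at 3.40 to 5.10 over all arrays. The 8 genes of selenoprotein synthesis, needed for GPX1 and GPX4, had a median of 0.06 with 0 called by limma. Pstk, the kinase that prepares the selenocysteine tRNA, stood at 0.39 ± 0.14 (adjusted p = 0.203) and Secisbp2, which binds the selenocysteine insertion element, at -0.29 ± 0.13 (adjusted p = 0.279). Among 5 genes listed as glutaredoxins, 0 were called and the median was 0.19, with Ptges2, a prostaglandin synthase with a glutaredoxin fold, at 0.48 ± 0.15 (adjusted p = 0.17) and mitochondrial Glrx2 at 0.27 ± 0.11 (adjusted p = 0.232).

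Supply and recycling genes gave no limma call. Of 8 measured genes of precursor supply, 7 differences lay below 0, with a median of -0.17: the glutamine carrier Slc1a5 stood at -0.70 ± 0.23 (adjusted p = 0.183), and the cystine carrier subunit Slc7a11, dim on all arrays, at -0.07 ± 0.14, which turned to 0.037 with arrays centred on their medians. Cth, which makes cysteine from cystathionine, was at 0.56 ± 0.19 (adjusted p = 0.19) on a dim probe set (3.40 to 4.53). Of the 9 genes of reduction and NADPH supply, 3 differences lay above 0, and the median was -0.19. NADP-dependent Idh1 stood at -0.36 ± 0.10 (adjusted p = 0.138, 0.0387 with the trend). The transhydrogenase Nnt was at -0.44 ± 0.16 (adjusted p = 0.212), though 1 of its 3 probe sets was at 0.02. Tkt went the other way, at 0.25 ± 0.09 on 1439443_x_at (adjusted p = 0.213 by limma, 0.0185 with the trend). On 1451015_at the Tkt difference was 0.35 ± 0.10 (adjusted p = 0.138 by limma, 0.0156 with the trend). Groups did not overlap on either, while another Tkt probe set, 1436605_at, was at -0.02. G6pdx, the main NADPH source of red cells, was not analysed here. The 10 breakdown genes had a median of -0.12. Chac2, which degrades glutathione in the cytosol, read 11.18, 11 and 11.13 in WT, against 10.67, 10.52 and 10.71 in KO, at -0.47 ± 0.11 (adjusted p = 0.112 by limma, 0.0171 with the trend), and 5-oxoprolinase Oplah was at -0.48 ± 0.15 (adjusted p = 0.173). Chac1, a relative of Chac2 named after its values were seen, read 5.89, 5.62 and 6.59 in WT, against 4.26, 6.04 and 4.24 in KO; KO 548 lay inside the WT range, and the difference was -1.19 ± 0.52 (adjusted p = 0.264). The 5 measured genes of glutathione-dependent detoxification had a median of -0.04, with the mitochondrial sulfur dioxygenase Ethe1 at -0.41 ± 0.13 (adjusted p = 0.165).

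Regulators of the pathway gave no limma call: of 8, 3 differences lay above 0 and the median was -0.10. Nfe2l2, which encodes NRF2, read 9.97, 9.77 and 9.82 in WT, against 10.26, 10.35 and 10.21 in KO. On this probe set, 1416543_at, all KO arrays stood above WT, by 0.42 ± 0.11 (adjusted p = 0.127 by limma, 0.0388 with the trend). On the other, 1457117_at, the groups overlapped, at 0.36 ± 0.16 (adjusted p = 0.269, 0.258 with the trend). The related factor Nfe2l1 was at -0.42 ± 0.11 (adjusted p = 0.133), and Keap1, the adaptor that marks NRF2 for degradation, at 0.08 ± 0.11 (interval -0.17 to 0.33, adjusted p = 0.731) on 1450746_at. The second Keap1 probe set, 1450747_at, went the other way, at -0.22 ± 0.11 (adjusted p = 0.311), with no overlap. Bach1, a haem-sensing repressor at antioxidant response elements, stood at 0.31 ± 0.10 on 1440831_at (adjusted p = 0.163 by limma, 0.0226 with the trend). Its other probe set, 1449311_at, was at 0.48 ± 0.12 (adjusted p = 0.12 by limma, 0.0947 with the trend). Groups did not overlap on either Bach1 probe set. Gclm, a target of NRF2, was at -0.28 and -0.18, with the groups overlapping on the second probe set, and Gclc was level within its interval. Among other members, Gss was higher, at 0.60 and 0.54, while Gstm1 and Mgst1 were lower. Abcc3, of the transport list, was higher, at 0.86. Which of these genes answer to NRF2 in these cells was not examined. The part of NRF2 in these or other differences was not tested.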

How the data were processed

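Total RNA of sorted erythroblasts in 3 WT and 3 KO samples was read on 1 array each. The deposited values were linear intensity summaries per probe set made by the authors with RMA, per the submitters' processing notes; software, version and background step were not given in the sources used here. Because RMA aligns the arrays with each other, it can hide a difference common to most transcripts. Taking log2 of the values gave 2-decimal numbers in 100% of cases (tolerance 0.0051); these were used with no pseudocount. Of 45101 probe sets, 64 controls were left out; 34945 of the others had 1 gene name, 932 several and 9160 none, by GEO's platform annotation updated through RefSeq identifiers (GRCm38.p6, 99.1% of genes matched). Groups came from sample titles.

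KO was compared with WT using limma 3.58.1 in R 4.3.3 (lmFit, eBayes, no covariate), adjusted by Benjamini-Hochberg over 45037 probe sets. The fit was tested on simulated data. Genes were represented by the probe set with the highest mean. The number of arrays limits the precision. Named genes are all members, a fixed set (Nfe2l2, Keap1, Slc7a11, G6pdx and Gpx3) and, per list, called genes or otherwise the 2 with the smallest p. Slc25a10, Bach1 and Tkt were named after their values were seen. Members and lists were chosen with earlier results of these data known. Alternatives were renewed quantile or cyclic loess normalization, median centring, an intensity trend with a robust prior, a filter on dim probe sets, a pseudocount of 16, other gene summaries and leaving out arrays.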

Additional observations from a re-analysis of the deposited data

How the results depend on the processing

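No paired analysis was possible because WT and KO titles share no number. All 19 member probe sets kept their direction and stayed uncalled under renewed quantile and cyclic loess normalization. Lower member calls numbered 4 with the intensity trend, 3 with the filter on dim probe sets, which kept 17 of the 19, and 2 with the pseudocount. In either direction, the trend called 3.53% of all probe sets and the filter 4.51% of the 22522 it kept. The pseudocount called 1016 of 45037. Other pathway genes called lower under these settings, in the same order, numbered 3, 2 and 2. The trend also called 5 of them higher, and it called 4.42% of all genes in either direction. Without any 1 array, 0 pathway genes were called higher, as without WT 497 and KO 493 together, an alternative chosen after seeing the data; 0 members were called in these fits. Over all probe sets 160 were called (51.9% higher); 411 with median centring (77.9% higher), 234 with renewed quantile normalization (67.1% higher), 1592 with the trend, 1015 with the filter, 1016 with the pseudocount, 8 to 23 without 1 array and 11 without both. Median centring moved the median of all probe sets from -0.04 to 0.07 and turned Gclc to 0.027 and 0.063, Gsr to 0.00333 and 0.077, Gpx1 to 0.063, Gpx4 1456193_x_at to 0.013 and Slc7a11 to 0.037. It moved the median of erythroid markers to -0.012 and of megakaryocyte markers to 0.15. Gsr 1421817_at ranged from -0.072 to 0.00833 without 1 array. Slc7a11 ranged from -0.16 to 0.063 without 1 array, the highest without KO 493, and was at 0.11 without both arrays, where the neutrophil median was -0.175. Without WT 497 the T and NK median was -0.29, and the lowest, -0.87, came without WT 504. Averaging a gene's probe sets or leaving out _x_at and _s_at probe sets called 0 members. The cause of these differences was not tested, and some of the fits also held fewer arrays or probe sets.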

Other observations

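Glo1, glyoxalase 1, which uses glutathione to clear methylglyoxal, stood apart in 1 array on 1 probe set; it was noticed after the values were seen. Its probe set 1451240_a_at read 13.97 in WT 550 and 12.03 to 12.15 in the other 5 arrays. The other 3 Glo1 probe sets did not show this: WT 550 read 12.05 on 1424108_at and 11.16 on 1424109_a_at, the lowest array on each, and 10.13 on 1436070_at, between the others at 9.87 to 10.19. The Glo1 difference of -0.67 ± 0.49 (limma, adjusted p = 0.483) on 1451240_a_at therefore rests on WT 550.

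Abcc5, an exporter of nucleotides and glutathione conjugates with 10 probe sets, was at higher KO values on 9 of them, between 0.05 and 0.49, and at -0.23 on the tenth, which read 2.96 to 3.67. Its brightest probe set, 1435684_at, was at 0.23, and limma called none of the 10. It was chosen after its values were seen.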
